A study of Rattus norvegicus with 20 samples.

Results

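The nuclear genes of the oxidative phosphorylation machinery were followed in rat liver across 4 diets. Members were chosen by name: genes whose symbol starts with Ndufa, Ndufb, Ndufc, Ndufs, Ndufv, Uqcr, Cox4, Cox5, Cox6, Cox7, Cox8 or Atp5, together with Sdha, Sdhb, Sdhc and Sdhd, each read from the probe set that averaged highest across the rats. The rule found 86 of the 14217 genes with a probe set of their own and takes no difference between diets into account, although earlier results of these data were known when the group was chosen. Of these, 34 belong to complex I, 4 to complex II, 7 to complex III, 19 to complex IV and 16 to complex V, and 6 are assembly factors of complex I (Ndufaf genes). Most, but not all, encode subunits of the finished enzymes. The Ndufaf genes, the ATP synthase inhibitor Atp5if1, the supercomplex factor Cox7a2l and Cox6c-ps1, which is named as a pseudogene, do not.

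Livers came from 20 rats (Sprague-Dawley, male), 5 per diet, and the RNA of each rat was hybridised to 1 Affymetrix array. The rats were 4 weeks old when the feeding began, and each diet was given for 21 days with total protein at 200 g/kg and total fat at 150 g/kg. CS was the diet with casein and soybean oil, CF that with casein and fish oil, TS that with tofu and soybean oil, and TF that with tofu and fish oil. In CF and TF, 50 g/kg of the soybean-derived fat was replaced by fish oil, and the tofu diets also held casein. Freeze-dried tofu (kori tofu) supplied protein and fat together, so that other components of tofu came with its protein. The arrays were run on rats with intermediate food consumption of each group. Rats are named here by their group and label number. Levels are given as z scores, log values on which a difference of 0.2 is a 1.41-fold difference. The brightness of a probe set depends on its probes, so that the z of one gene cannot be set against that of another. Nothing in the labels gives a litter or a hybridisation batch, and p-values measure the spread between these rats.

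Oxidative phosphorylation makes most of the ATP of a resting cell. Complex I takes electrons from NADH and complex II takes them from succinate, complex III passes them from ubiquinol to cytochrome c, and complex IV (cytochrome c oxidase) hands them to oxygen. The protons pumped on the way drive complex V, the ATP synthase. Liver is rich in mitochondria, and the electrons from the oxidation of fatty acids enter this chain. The core proteins of complexes I, III and IV are encoded partly by mitochondrial DNA, and the genes described here are all nuclear.

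The liver identity of the samples showed in its defining markers. Albumin (Alb) had a mean z of 3.57 and transthyretin (Ttr) of 3.35, whereas array medians lay between -0.102 and 0.022. The 5 measured skeletal muscle markers, a check for muscle isoforms among the members, lay between -0.81 (Acta1) and 0.06 (Tnnt3), and 0 of 5 were called for the protein or the oil effect by limma, and 0 of 5 passed an unadjusted p under 0.05. The median correlation of an array with the others ranged from 0.938 to 0.958. The 5′ beta-actin control probe set, commonly read against its 3′ probe set for RNA quality, was 1.30 to 1.42 in 4 rats. These were 1 of each group (TF-3, TS-1, CF-1 and CS-1), and the other 16 read 1.86 to 2.13. The 3′ beta-actin probe set was also lower in the 4 rats, at 2.09 to 2.20 against 2.34 to 2.62. The 5′ GAPDH probe set was not, at 2.76 to 2.87 against 2.63 to 2.84. The reason for the low beta-actin was not tested.

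The members as a whole were at nearly the same level on all 4 diets. Their mean z over 86 genes was 1.79 ± 0.044 (SD, n = 5 rats) in CS and 1.77 ± 0.026 in TS, the soybean oil diets, and 1.78 ± 0.044 in CF and 1.80 ± 0.046 in TF, the fish oil diets. The groups overlapped in full. A total of 79 members lay above the highest array median, and the 7 below it were Cox7a1, Ndufa4l2, Cox6a2, Cox4i2, Cox6b2, Cox8b and Cox7b2. In bulk liver, fewer cells of a type and less RNA per cell cannot be told apart.

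Averages over the single complexes overlapped between the diets as well. Complex I members averaged 2.01 ± 0.044 in CS and 2.03 ± 0.054 in TF, and complex III members 2.21 ± 0.039 and 2.25 ± 0.057. Complex II members averaged 2.12 ± 0.041 in CS, the lowest group, and 2.17 ± 0.072 in TF, the highest. Complex V members averaged 2.30 ± 0.047 in CS and 2.29 ± 0.062 in TF. The mean over complex IV was 1.14 ± 0.065 in CS and 1.13 ± 0.047 in CF on casein, against 1.07 ± 0.028 in TS and 1.10 ± 0.029 in TF on tofu, and the ranges of all groups overlapped. This mean holds all 7 members at or below the highest array median. Over the other 12 complex IV genes it was 2.01 ± 0.060 in CS and 1.97 ± 0.079 in CF, against 1.91 ± 0.029 in TS and 1.92 ± 0.071 in TF, again with overlapping ranges.

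**Figure D1:**
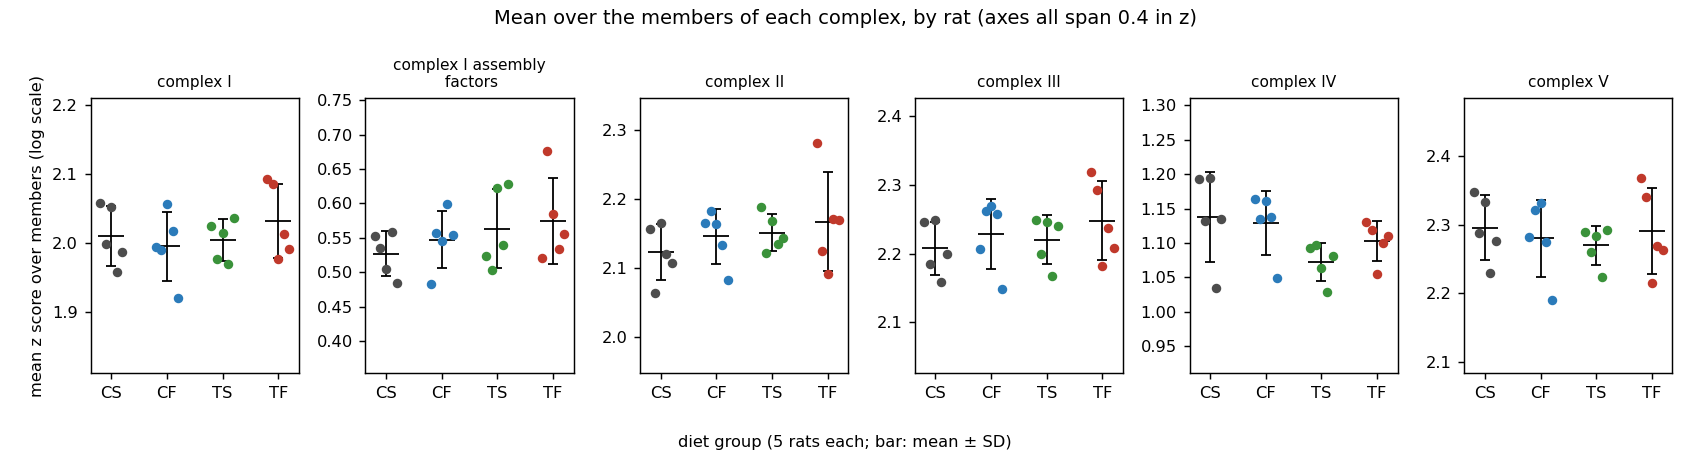
Mean z score over the members of each complex (vertical axes, log scale, each spanning 0.4 in z) in each rat (points) of the 4 diet groups, with the group mean and SD as bars. All groups overlap in every complex, and for complex IV, whose mean includes the 7 members at background level, the group means run from 1.07 in TS to 1.14 in CS.

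The protein effect, the mean of the tofu groups minus the mean of the casein groups, answers which members followed the protein source. Of 86 members 1 was called, the complex IV subunit gene Cox7b, which fell on tofu. It was tested with limma over all 31039 probe sets at a Benjamini-Hochberg adjusted p under 0.05, at which 0.921% of all genes were called and 0.401% of all genes were called as lower. At an unadjusted p under 0.05, 10 of 86 members passed, against 11.5% of all genes. By direction, 3 members were higher on tofu, against 7.45% of all genes, and 7 were lower, against 4.04% of all genes. The median difference over the members was 0.01 in z, and over all genes it was also 0.01. The difference lay within 0.1 in z of 0 for 79 of 86 members (91.9%) and for 85.8% of all genes. The 95% interval lay inside ±0.2 in z (a 1.41-fold difference either way) for 76 of 86 members (88.4%) and 75.1% of all genes. Above the highest array median it did so for 89.9% of members and 89.3% of genes. There, 91.1% of members and 90.9% of genes differed by less than 0.1.

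Cox7b encodes a small nuclear subunit of cytochrome c oxidase that the enzyme needs for its assembly. Its z in the CS rats CS-1, CS-2, CS-5, CS-6 and CS-7 was 2.54, 2.41, 2.34, 2.23 and 2.26. In CF-1, CF-2, CF-5, CF-6 and CF-7 it was 2.39, 2.44, 2.30, 1.89 and 1.93. In TS-1, TS-2, TS-4, TS-5 and TS-7 it was 1.87, 1.86, 2.12, 1.79 and 1.91, and in TF-3, TF-4, TF-5, TF-6 and TF-7 it was 2.17, 1.84, 1.88, 1.60 and 1.85. All 5 CS rats lay above all 10 tofu rats, while CF was split, with CF-6 and CF-7 inside the tofu range and the other 3 rats inside the CS range.

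The protein effect on Cox7b was -0.38 in z (SE 0.079, 95% interval -0.55 to -0.22), a 1.95-fold lower level, with an adjusted p of 0.0298 by limma. All 10 tofu rats lay below the casein mean. Against CS alone the difference was -0.45 in TS (adjusted p = 0.217) and -0.49 in TF (adjusted p = 0.0615), neither of which passed the threshold. Fish oil against soybean oil gave -0.11 (SE 0.079, adjusted p = 0.977). The call of the protein effect was close to its threshold: in 13 of the 20 fits that left out 1 rat it was lost, with an adjusted p of up to 0.0631 and a difference between -0.42 and -0.35. It was kept without CS-6, CS-7, CF-6, CF-7, TS-4, TF-3 or TF-4. Without the 4 rats with low 5′ beta-actin the difference was -0.37 (adjusted p = 0.0789), and without the 3 arrays least correlated with the others (TS-7, TF-4 and TF-5) it was -0.38 (adjusted p = 0.130).

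The members next to Cox7b in size of the protein effect were Atp5mk, a small subunit of the ATP synthase with a part in holding its dimers together, and Cox6c, another small subunit of complex IV. Neither passed the threshold. In the CS rats, in the same order as above, Cox6c read 2.62, 2.49, 2.43, 2.44 and 2.38. In CF it read 2.45, 2.51, 2.46, 2.22 and 2.15. In TS it read 2.20, 2.13, 2.33, 2.11 and 2.25 and in TF 2.35, 2.31, 2.15, 2.15 and 2.19. As with Cox7b, CS lay above all tofu rats, and CF-6 and CF-7 were at the level of the tofu rats. The protein effect on Cox6c was -0.20 (SE 0.050, 95% interval -0.30 to -0.09, adjusted p = 0.0891 by limma).

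Atp5mk read 2.39, 2.24, 2.14, 2.11 and 2.07 in CS and 2.13, 2.22, 2.23, 1.87 and 1.83 in CF. It read 1.91, 1.84, 2.09, 1.70 and 1.98 in TS and 2.07, 1.98, 1.84, 1.86 and 1.92 in TF. CS-7 lay just under the highest TS rat and barely above the highest TF rat, and CF-6 and CF-7 again stood with the tofu rats. The protein effect was -0.20 (SE 0.062, 95% interval -0.34 to -0.07, adjusted p = 0.196 by limma).

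Cox7c, a further small subunit of complex IV, had the next largest difference, at -0.17 (SE 0.064, 95% interval -0.30 to -0.04, adjusted p = 0.335 by limma). Its z was 2.09, 1.90, 1.81, 1.84 and 1.68 in CS and 1.90, 1.90, 1.80, 1.57 and 1.58 in CF. In TS it was 1.58, 1.66, 1.80, 1.46 and 1.80, and in TF 1.73, 1.75, 1.50, 1.50 and 1.56. CS and the tofu groups overlapped for Cox7c, and CF-6 and CF-7 were the lowest of the CF rats as in the other 3 genes. They were also the lowest CF rats in Ndufa4 (2.28 and 2.25, others 2.46 to 2.52) and Ndufa1 (2.18 and 2.14, others 2.33 to 2.38). In Uqcrfs1, by contrast, CF-6 was the highest CF rat at 2.34. CS-1, among the rats with low 5′ beta-actin, read highest of all rats in each of the 4 genes, and its part was not tested. The likeness of the 4 genes across rats was noticed after their values were seen. The rats were not regrouped by it, and the labels record nothing that sets CF-6 and CF-7 apart from CF-1, CF-2 and CF-5.

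**Figure D2:**
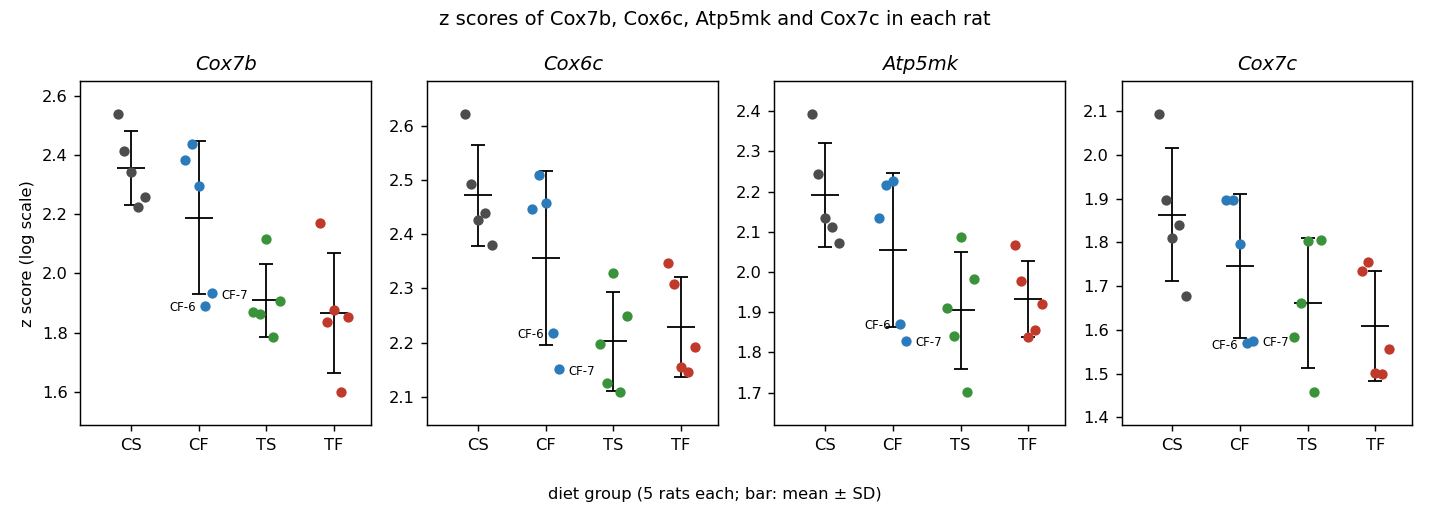
z scores (log scale) of Cox7b, Cox6c, Atp5mk and Cox7c in each rat (points) of CS, CF, TS and TF, with group mean and SD as bars. In all 4 panels CF-6 and CF-7 lie below the other 3 CF rats and within the range of the tofu rats; for Cox7b they read 1.89 and 1.93.

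The DNA in front of Cox7b, Cox7c and Atp5mk is shown because these genes differed most on tofu among the members that have a promoter entry; Cox6c has none in the table used. Sequences are the 200 bases before the annotated start, 5′ to 3′ on the strand of the gene, from RefSeq on GRCr8. Cox7b lies at chrX:75148836-75149035 (plus strand), Cox7c at chr2:18579171-18579370 (minus strand) and Atp5mk at chr1:255922048-255922247 (minus strand). Capitals mark a run of 15 bases that Cox7b and Cox7c share, and in Atp5mk matches to GGGCGG (SP1) and CCGGAAG (ETS family, on the opposite strand).
Cox7b: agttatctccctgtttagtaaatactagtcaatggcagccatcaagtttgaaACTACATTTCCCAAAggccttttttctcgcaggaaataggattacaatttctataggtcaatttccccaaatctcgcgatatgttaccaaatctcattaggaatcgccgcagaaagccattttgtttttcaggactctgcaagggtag
Cox7c: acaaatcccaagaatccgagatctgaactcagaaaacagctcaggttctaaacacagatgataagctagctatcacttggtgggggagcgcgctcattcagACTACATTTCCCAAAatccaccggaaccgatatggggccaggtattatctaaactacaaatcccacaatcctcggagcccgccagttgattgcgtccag
Atp5mk: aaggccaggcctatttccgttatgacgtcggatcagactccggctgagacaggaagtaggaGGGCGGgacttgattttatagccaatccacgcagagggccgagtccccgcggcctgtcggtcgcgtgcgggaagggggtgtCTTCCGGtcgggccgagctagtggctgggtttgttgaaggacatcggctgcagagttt
The shared run starts 148 bases before the start of Cox7b and 99 bases before that of Cox7c. It was found by comparing these sequences and was not a motif chosen beforehand. On either strand it stands in 4 of 27457 RefSeq promoters of 300 bases (0.0146%). Cox7b and Cox7c are 2 of these 4 by construction, because the run was taken from them. No other of the 78 members with an entry holds it, and these counts are no test of a shared element.

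The promoters of the members as a group were searched for short motifs of factors known for nuclear genes of mitochondria, on both strands of 300 bases (250 before and 50 after the start). The NRF1 core GCGCATGC was in 9 of 78 members (11.5%) and in 2.66% of all 27457 promoters. The ETS motif CCGGAAG was in 22 members (28.2%) and in 9.22% of all, and the YY1 motif ATGGCGG in 17 members (21.8%) and in 5.22% of all. The SP1 motif GGGCGG was in 34 members (43.6%) and in 34.9% of all. Cox7b and Cox7c held none of the 4 in their 300 bases. The same was true of other members, Atp5f1c, Ndufv1 and Sdha among them. A match in letters is a description of the sequence, and no binding was measured.

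Among the complex I genes, which pass electrons from NADH to ubiquinone, 0 of 34 were called for the protein effect (0.921% of all genes). At an unadjusted p under 0.05, 4 of 34 passed, against 11.5% of all genes. The median difference over complex I was 0.03. The lowest unadjusted p values belonged to Ndufb3, an accessory subunit of the membrane arm, at -0.09 (SE 0.036, adjusted p = 0.361 by limma), and Ndufv2, a core iron-sulfur subunit at the NADH-binding end, at -0.07 (SE 0.027, adjusted p = 0.379 by limma). The other 2 were the accessory subunits Ndufb8 at 0.14 and Ndufa11 at 0.06. The 6 measured core subunits (Ndufs1, Ndufs3, Ndufs7, Ndufs8, Ndufv1 and Ndufv2) had a median difference of 0.03, and their differences ran from -0.07 to 0.05. Ndufb9, a subunit of the membrane arm, had a mean z of 2.50 and differed by 0.04.

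A pair of complex I genes varied widely between rats without following the diets. Ndufs4, an accessory subunit added late in assembly, had the largest range of all members. It read 0.97 in CS-1, 0.62 in CF-2, 1.06 in CF-7 and 1.10 in TF-7, and from 1.46 to 1.66 in the other 16 rats. These 4 low rats lay in 3 groups, CS, CF and TF, and no TS rat was low. The protein effect on Ndufs4 was 0.13 (95% interval -0.11 to 0.38, adjusted p = 0.756 by limma). Ndufa5, a subunit of the matrix arm, read 1.34 in CS-1, and from 0.51 to 0.88 in the other 19 rats. Over the 79 members above the highest array median, the range between the lowest and the highest rat had a median of 0.25, and it exceeded 0.6 in 6. Ndufs4, Ndufa5 and Ndufb8 were chosen here after their values were seen.

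Ndufb8, which is used in many laboratories as a protein marker of complex I, also spread widely. It read 1.63, 1.39, 1.47, 1.43 and 1.15 in CS and 1.34, 1.18, 1.25, 1.37 and 1.25 in CF. In TS it read 1.45, 1.30, 1.51, 1.38 and 1.76 and in TF 1.41, 1.66, 1.47, 1.42 and 1.49. All TF rats lay above all CF rats, while CS and TS overlapped with each other and with both. The protein effect was 0.14 (SE 0.060, 95% interval 0.01 to 0.27, adjusted p = 0.431 by limma).

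The 6 assembly factors of complex I are proteins that build the enzyme and leave it. None was called for the protein effect, and 1 of 6 passed an unadjusted p under 0.05, against 11.5% of all genes. This was Ndufaf5, an enzyme that modifies a core subunit during assembly. It read 0.37, 0.28, 0.26, 0.32 and 0.33 in CS and 0.31, 0.28, 0.31, 0.43 and 0.39 in CF. In TS it read 0.39, 0.36, 0.44, 0.39 and 0.51 and in TF 0.47, 0.51, 0.43, 0.34 and 0.37. All 10 tofu rats lay above the casein mean, but the ranges overlapped through CF-6, CF-7 and CS-1. The difference was 0.09 (SE 0.030, adjusted p = 0.241 by limma). Ndufaf7, which modifies another core subunit, followed at 0.06 (adjusted p = 0.609). Ndufaf3 had a mean z of 1.10 and Ndufaf1 of 0.13.

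**Figure D3:**
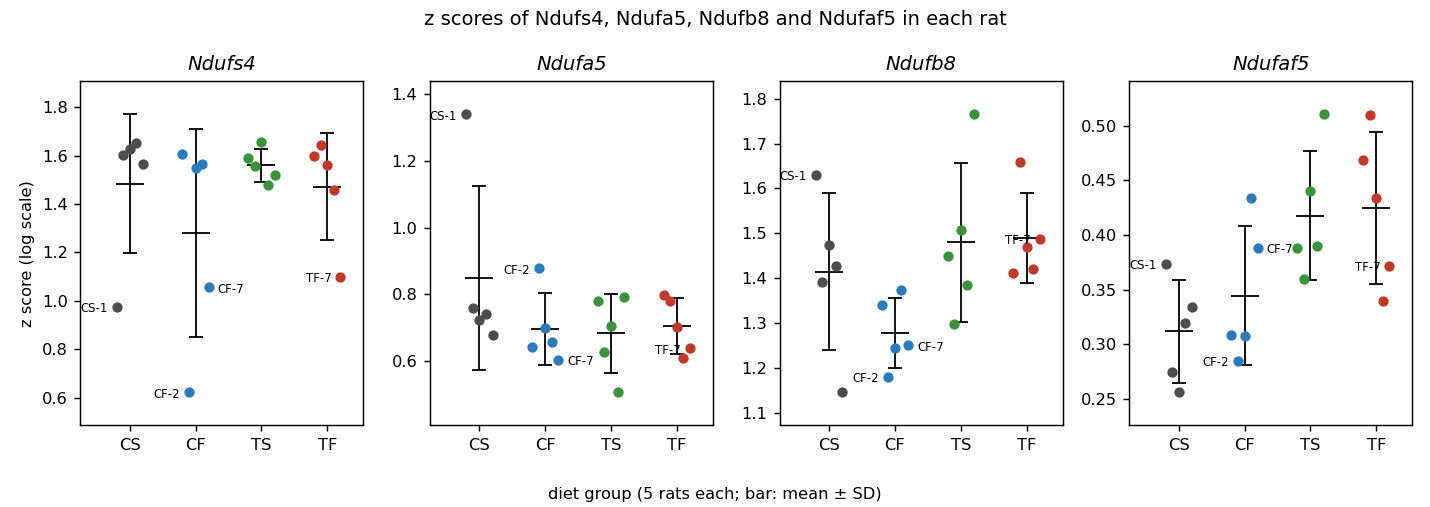
z scores (log scale) of Ndufs4, Ndufa5, Ndufb8 and the assembly factor Ndufaf5 in each rat (points) of CS, CF, TS and TF, with group mean and SD as bars and CS-1, CF-2, CF-7 and TF-7 named. Ndufs4 is low in those 4 rats, at 0.62 to 1.10, and Ndufa5 is high in CS-1, at 1.34.

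Complex II, the succinate dehydrogenase that is also a step of the citric acid cycle, and complex III, the cytochrome bc1 complex, had 0 of 4 and 0 of 7 members called for the protein effect. None of these 11 passed an unadjusted p under 0.05 for it, against 11.5% of all genes. The membrane anchor Sdhc differed by 0.04 and the flavoprotein Sdha by 0.04, from mean z values of 2.37 and 1.76. The small complex III subunit Uqcr10 was higher on tofu by 0.06 (SE 0.026, adjusted p = 0.491 by limma), with all 10 tofu rats above the casein mean. Uqcr11, its small neighbour in the complex, differed by 0.03. Uqcrq, another small subunit, had a mean z of 2.64, and the core protein Uqcrc2 of 1.63.

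Complex IV, where Cox7b, Cox6c and Cox7c belong, held 4 of the 7 members that were lower on tofu at an unadjusted p under 0.05, a direction given above for 4.04% of all genes. The other was Cox6c-ps1, at -0.12 (SE 0.043, adjusted p = 0.286 by limma) and close to the array medians in level. Its name marks it as a copy of Cox6c, and whether its probes also bind Cox6c transcripts cannot be read from the table. The remaining 15 complex IV genes differed by -0.09 to 0.08. Cox4i1, the common isoform of the largest nuclear subunit, had a mean z of 2.68 and differed by 0.02. Ndufa4, once counted in complex I and now placed in complex IV, differed by -0.09 (SE 0.042, adjusted p = 0.511 by limma).

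Several subunits of complex IV come in a common isoform and one restricted to certain tissues, and both kinds are among the members. Cox6a1, Cox6b1 and Cox8a had mean z values above 2, and their differences on tofu ran from -0.02 to 0.02. The heart and muscle isoforms Cox6a2 (-0.35), Cox8b (-0.47) and Cox7a1 (-0.02) and the testis isoforms Cox6b2 (-0.46) and Cox7b2 (-0.49) lay at or below the highest array median. So did Cox4i2 (-0.40), an isoform linked to low oxygen, and Ndufa4l2 (-0.12), the low-oxygen relative of Ndufa4. At such levels differences may be background, and no fold is given.

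Of the ATP synthase genes 0 of 16 were called for the protein effect. Atp5mk alone passed an unadjusted p under 0.05, against 11.5% of all genes. The differences of the other 15 ran from -0.05 to 0.04, the highest being that of Atp5pb, a subunit of the stator stalk. Atp5mc3, which encodes the ring subunit c, had a mean z of 2.96. Atp5if1, the inhibitor that stops the enzyme from running backwards, had a mean z of 0.75 and differed by 0.03.

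**Figure D4:**
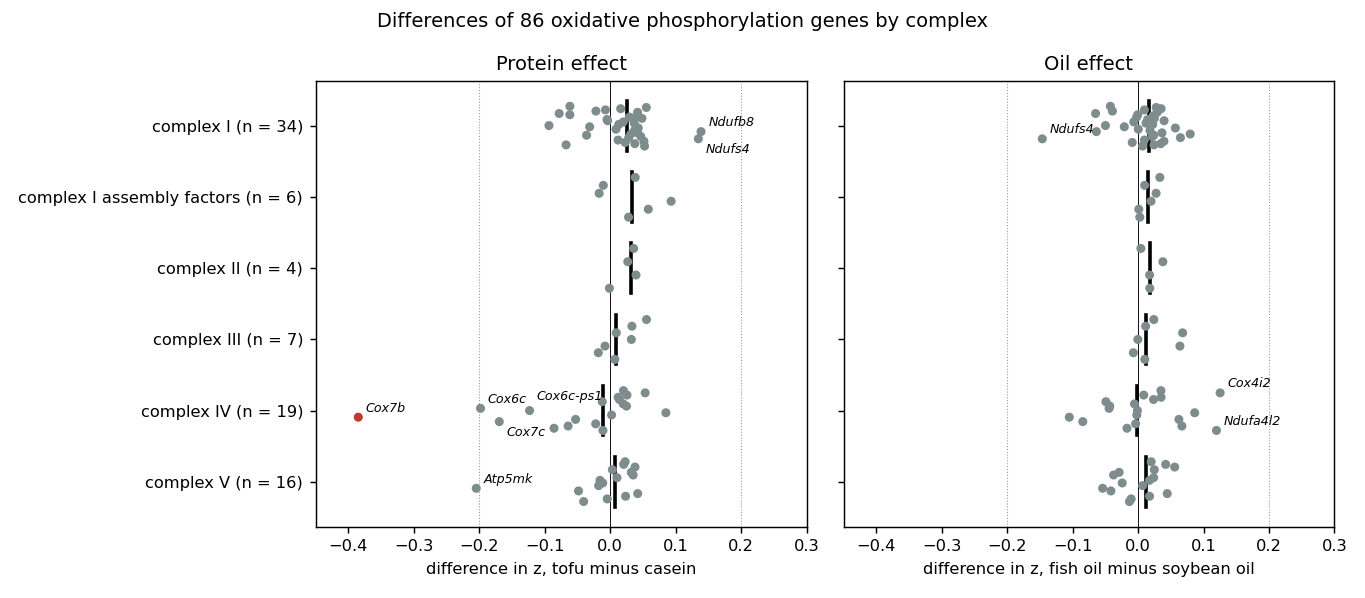
Difference in z of each of the 86 members (points) for tofu minus casein (left) and fish oil minus soybean oil (right), by complex; thick bars are the medians of a complex, dotted lines mark ±0.2, and red marks an adjusted p under 0.05. Cox7b at -0.38 is the only red point, and medians lie between -0.01 and 0.03 in both panels.

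The oil effect, the mean of the fish oil groups minus the mean of the soybean oil groups, was called for 0 of 86 members by limma, against 0.302% of all genes, and the lowest adjusted p was 0.838. An ordinary linear model without variance moderation also called 0. At an unadjusted p under 0.05, 6 members passed, against 5.55% of all genes. All 6 were higher on fish oil, a direction that 2.95% of all genes took at this threshold. The median difference was 0.01 over the members and -0.002 over all genes. The 95% interval lay inside ±0.2 in z for 78 of 86 members (90.7%) and 78.4% of all genes. Above the highest array median it did so for 94.9% of members and 92.1% of genes.

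The 6 members were the complex I genes Ndufc1 (0.08) and Ndufs3 (0.06), the latter a core subunit, the complex III genes Uqcrfs1 (0.06), the Rieske iron-sulfur protein, and Uqcrc1 (0.07), and the dim complex IV genes Cox4i2 (0.13) and Ndufa4l2 (0.12). Cox4i2 read -0.29, -0.63, -0.54, -0.66 and -0.49 in CS and -0.34, -0.40, -0.29, -0.22 and -0.39 in CF. It read -0.19, -0.50, -0.57, -0.49 and -0.25 in TS and -0.42, -0.39, -0.27, -0.28 and -0.37 in TF. All 10 fish oil rats lay above the soybean oil mean, yet CS-1, TS-1 and TS-7 were as high as the fish oil rats. In complex II, Sdhb (0.04) and Sdhd (0.02) had the lowest unadjusted p for oil, and in complex V Atp5f1c, the central shaft (0.06), and Atp5f1b, the catalytic beta subunit (0.04). Among the assembly factors these were Ndufaf1 (0.03) and Ndufaf5 (0.02). All 6 assembly factors and all 4 complex II genes were on the fish oil side of 0, by at most 0.04. That side held 65.1% of all members and 48.2% of all genes.

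The interaction, which asks whether the oil effect differed between protein sources, was called by limma for 0 of 86 members and for 0% of all genes. At an unadjusted p under 0.05, 1 of 86 members passed, the dim testis isoform Cox7b2, against 2.53% of all genes in either direction and 1.05% in that of Cox7b2. The ordinary linear model called 0 as well.

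Each diet was also set against CS, and all 3 comparisons use the same CS rats. TF against CS gave 0 of 86 members called (0.753% of all genes) and 13 at an unadjusted p under 0.05 (10.7% of all genes), with 8 higher (6.46% of all genes) and 5 lower (4.23%). TS against CS gave 0 called (0.106% of all genes) and 6 at an unadjusted p under 0.05 (7.53% of all genes), with 1 higher (5.07% of all genes) and 5 lower (2.46%). CF against CS gave 0 called (0.0844% of all genes) and 1 at an unadjusted p under 0.05 (3.40% of all genes, 2.14% higher). This was Cox4i2, whose z was higher in CF by 0.19 but lay below the highest array median in all groups, where differences may be background. The ordinary linear model called 0 in each of the 3.

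The 5 members lower in TF than in CS at an unadjusted p under 0.05 were Cox7b (-0.49), Atp5mk (-0.26), Cox7c (-0.25), Cox6c (-0.24) and Ndufb3 (-0.14). TF and CS did not overlap for 3 of 86 members, Cox7b, Cox6c and Atp5mk, all lower in TF, against 2.94% of all genes in either direction and 1.19% with TF lower. The 10 tofu rats and the 10 casein rats did not overlap for 0 of 86 members, against 0.148% of all genes.

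Single rats of the same diet also differed in the mean over all members. The mean over all 86 members was 1.71 in CF-7, the lowest of the 20 rats, against 1.78 to 1.83 in the other CF rats. It was 1.85 in TF-3, the highest, and 1.84 in TF-4, against 1.74 to 1.78 in the other TF rats. TF-3 is among the rats with low 5′ beta-actin and TF-4 among the arrays least correlated with the others, and their part in these means was not tested.

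**Figure D5:**
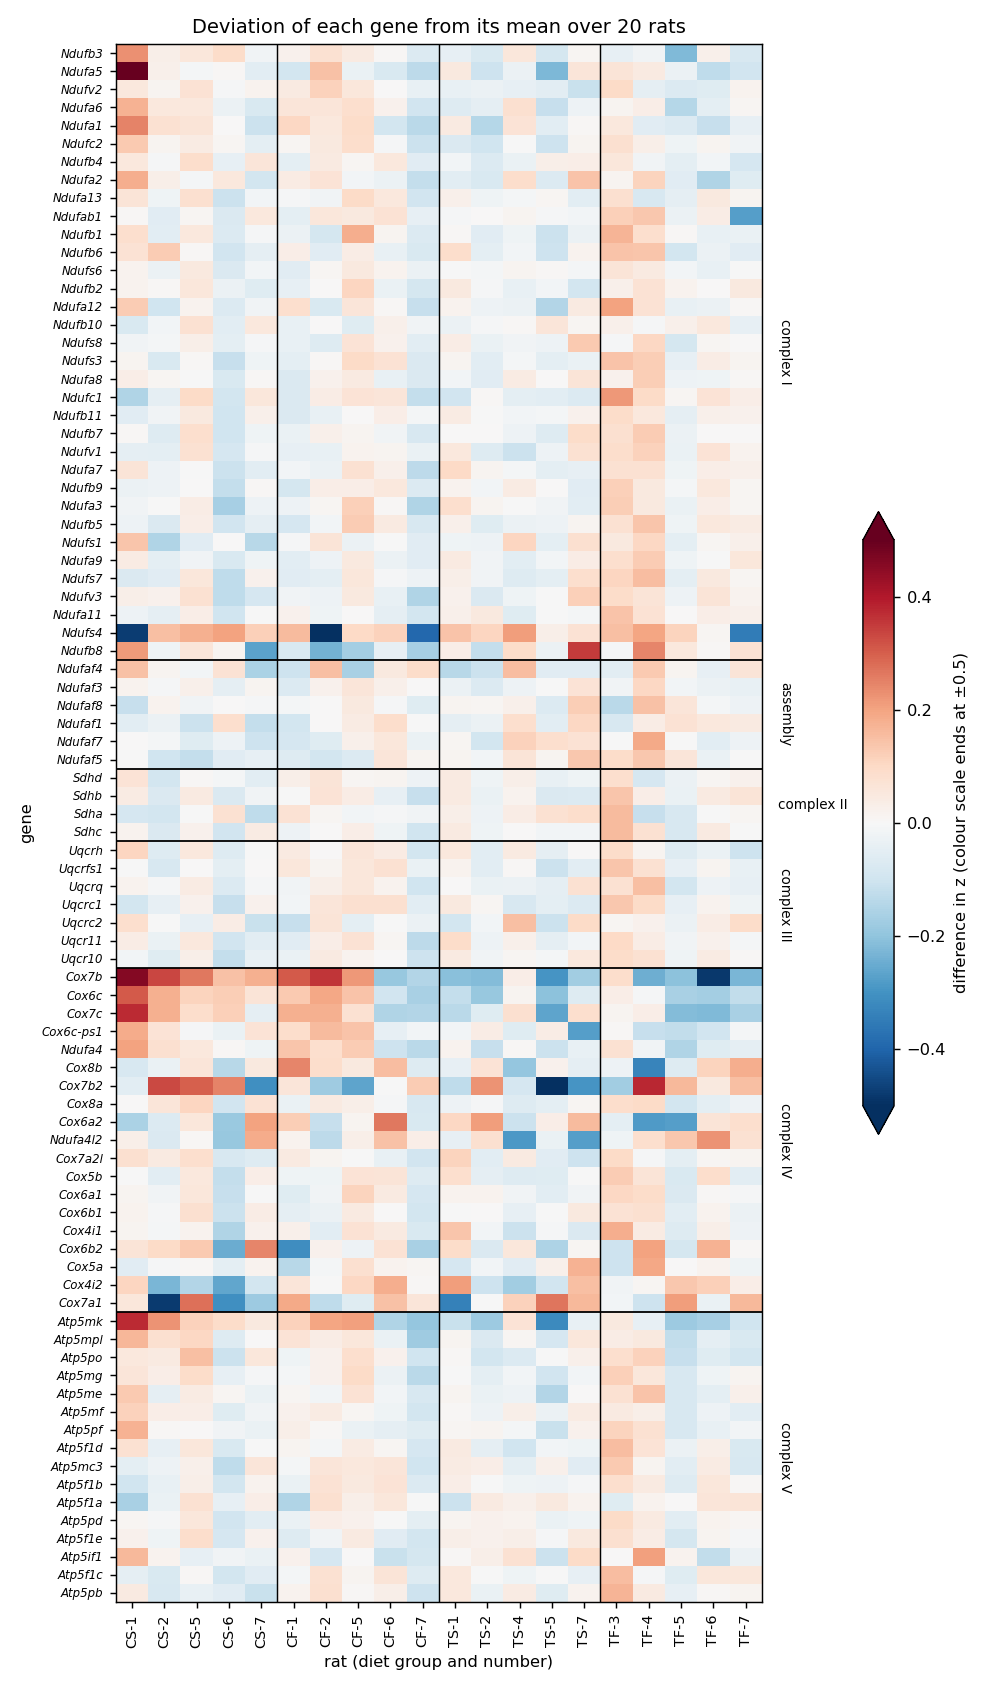
Deviation of each member (rows, by complex, ordered by the protein effect) from its own mean over 20 rats (columns, by diet group), in z, with red above and blue below the mean and colours ending at ±0.5. Cox7b, Cox6c, Cox7c and Atp5mk are mostly red in CS and in CF-1, CF-2 and CF-5 and mostly blue in CF-6, CF-7 and the tofu rats; Ndufs4 is dark blue in CS-1, CF-2 and CF-7.

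Of the 9 members with more than 1 probe set, 10 further probe sets were measured, and none was called for the protein or oil effect. Their protein effects ran from -0.04 to 0.12, the last in a dim probe set of Atp5po, a stator subunit (adjusted p = 0.468 by limma). Cox7b, Cox6c, Atp5mk and Cox7c each had a single probe set of their own, so that no second probe set could be compared.

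Genes that serve the same machinery were read beside the members. Of 41 listed partners and assembly factors outside the members 38 were measured, cytochrome c (Cycs) not being one of these. The list holds factors that insert copper and heme or stabilise subunits. It also holds Cyc1, the gene of the complex III subunit cytochrome c1, which the name rule leaves out. Of the 38 measured genes 0 were called by limma for the protein or the oil effect. Their median protein effect was 0.03, and at an unadjusted p under 0.05 there were 4 higher on tofu and 1 higher on fish oil. The mitochondrial ribosome translates the subunits encoded by mitochondrial DNA. Its 73 measured genes had a median protein effect of 0.03 and 0 calls for either effect. Of these, 8 were higher and 1 lower on tofu and 1 higher on fish oil at an unadjusted p under 0.05. The shares of all genes at this threshold were 7.45% higher and 4.04% lower on tofu and 2.95% higher on fish oil. Of 17 listed regulators of mitochondrial genes, such as Ppargc1a and Nrf1, 16 were measured, and 0 were called for either effect, with 0 at an unadjusted p under 0.05.

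A single gene among the 18 mitochondrial carriers and uncoupling proteins changed with oil. Slc25a20, which exchanges acylcarnitine for carnitine across the inner membrane and so brings fatty acids to oxidation, was 1.56 ± 0.08 (SD, n = 5) in CS and 1.58 ± 0.04 in TS, against 1.77 ± 0.11 in CF and 1.79 ± 0.01 in TF. It rose on fish oil by 0.21 (SE 0.034, adjusted p = 0.00608 by limma), while its protein effect was 0.02 (adjusted p = 0.882). The median oil effect over the 18 genes was 0.03, and 4 were higher at an unadjusted p under 0.05, against 2.95% of all genes.

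Markers of other cells in liver were set beside these results. The 4 measured endothelial markers averaged 1.18 ± 0.050 in CS and 1.19 ± 0.039 in CF, against 1.29 ± 0.052 in TS and 1.24 ± 0.034 in TF. For the protein effect 0 of 4 were called, and 2 were higher at an unadjusted p under 0.05 (7.45% of all genes). The 5 Kupffer cell and macrophage markers ranged in mean from 0.903 to 1.14 in CS and from 0.922 to 1.15 in TF, with 0 called and 0 at an unadjusted p under 0.05 for protein or oil. The 6 hepatocyte markers averaged 3.16 ± 0.046 in CS and 3.20 ± 0.056 in CF, against 3.25 ± 0.073 in TS and 3.24 ± 0.094 in TF. Of these 0 were called for protein or oil. There were 2 higher on tofu and 1 higher on fish oil at an unadjusted p under 0.05 (7.45% and 2.95% of all genes). The 5 stellate cell markers had a median oil effect of -0.09, with 0 called. Of these, 3 were lower on fish oil at an unadjusted p under 0.05, as were 369 of all 14217 genes. The part of these markers in the values of Cox7b was not tested.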

How the data were processed

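Liver RNA of 20 rats was measured on Affymetrix rat genome arrays, and 1 value per probe set and rat was used. The authors deposited z scores from the SuperNORM service, in which every array is standardized to its own lognormal distribution; per the study's methods 0.2 in z is a 1.41-fold difference. The service's version and the summary over probe cells are not given in the sources used here. Arrays give no depth, so that the number of rats limits precision. The table has 31099 probe sets, 57 of them controls, and 31039 had at least 3 values per group and were tested; members had no missing value. Symbols were updated by Entrez identifier. A further 7 probe sets listed with another gene too (Atp5mc1, Cox7a2, Atp5mc2, Cox5a, Uqcrb, Ndufs5, Ndufa10) were left out; of these genes Cox5a stayed a member through another probe set.

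Group means were fitted with limma 3.58.1 in R 4.3.3 with variance moderation, all rats and no covariate; p-values were adjusted (Benjamini-Hochberg) over all probe sets. The scripts were tested on simulated data. Genes were named if called, if among the 2 lowest unadjusted p for either main effect in their complex, if highest or lowest in mean z there, or if a tissue isoform. Others, such as Cox7c, Cox6c-ps1, Ndufs4 and Ndufb8, were named after their values were seen. Rat numbers gave little sign of pairing: of 22 correlations of same-numbered rats' deviations 1 exceeded 0.1. The highest were CS-1 with CF-1 (0.128) and CF-1 with TS-1 (0.0937), all rats with low 5′ beta-actin. TF-3, the other such rat, has no same-numbered partner and could not be compared in this way. Alternatives covered scaling, filters, variance models, probe sets, array weights, the replicate block and each rat left out. The members and lists were chosen with earlier results of these data known.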

Additional observations from a re-analysis of the deposited data

Results flagged for a closer look

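Within groups of 5 rats, 204 groups of values were examined (44 members and 7 means over members, in each of 4 diets), and in 8 a single rat stood apart by more than 0.71 of the group's range. Chance marks about 1 in 20 such groups, a share that the 8 do not exceed. Some members, Ndufs4 among them, were included after their values were seen, so that the flag of Ndufs4 follows from that choice. In CS, Ndufs4 was 0.975 and Ndufa5 1.34 in CS-1, against 1.57 to 1.65 and 0.680 to 0.759 in the others. Cox4i1, the common isoform of its subunit, was 2.53 in CS-6 against 2.66 to 2.70 in the others. The mean over complex IV was 1.05 in CF-7, against 1.14 to 1.16 in the other CF rats. Ndufv2 was 2.05 in TS-7, against 2.10 to 2.12. In TF, the assembly factor Ndufaf1 was 0.0506 in TF-3 (others 0.166 to 0.204), Ndufaf3 was 1.21 in TF-4 (others 1.07 to 1.09), and Ndufaf7 was 0.489 in TF-4 (others 0.247 to 0.299). CS-1 and TF-3 are among the 4 rats with low 5′ beta-actin, and TS-7 and TF-4 among the 3 arrays least correlated with the others. The part of either in these values was not tested.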

How the results depend on the processing

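The number of members called for the protein effect was 1 (Cox7b) and became 2 (Cox7b and Cox6c) with quantile normalization, with bright probe sets only, with a variance trend, and at a threshold of 0.1. It was 0 without the 4 rats with low 5′ beta-actin and 0 without TS-7, TF-4 and TF-5, alternatives chosen with earlier results of these data known, and 0 to 2 when single rats were left out. For TF against CS, where 0 were called, 2 were called with quantile normalization (Cox6c and Cox7b), and 1 (Cox7b) with bright probe sets only, with a variance trend, and at a threshold of 0.1, and 0 to 1 when single rats were left out. With the rat number as a replicate block, Cox7b was the 1 member called for TF against CS and the 1 for TS against CS, and its protein effect was -0.45 (adjusted p = 0.0126 by limma). The numbers gave little sign of pairing (correlations of -0.0975 to 0.128), so that the block is given only here, and it changed no other count. The cause of these changes was not tested. The counts for the oil effect, the interaction and CF against CS were 0 in all 31 alternatives. The medians over members moved by less than the spread between single rats (SD 0.045), which is wider than the error of a group mean. Apart from the fits that left out 1 rat, that of the protein effect, 0.01, moved to between -0.01 and 0.03. That of TF against CS, 0.03, moved to between -0.01 and 0.06, so that both changed sign in some alternatives. The median interaction, 0.03, moved to between 0.004 and 0.07. The median protein effect of all genes, 0.01 in z, became -0.001 with quantile normalization and 0.0001 with a common median and interquartile range. For every effect and scaling the median of all genes lay between -0.007 and 0.014. Single probe sets, 5 rats per group and an unknown assignment of arrays to batches limit what can be said of Cox7b, and the 7 dim members can be described only at background level.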

Other observations

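Cidea, a lipid droplet protein that stood in the list of brown fat markers, was 0.24 ± 0.10 (SD, n = 5) in CS and 0.27 ± 0.11 in TS, against 0.60 ± 0.14 in CF and 0.72 ± 0.20 in TF, and rose on fish oil by 0.41 (adjusted p = 0.00368 by limma). The others on that list, Ucp1 (0.04) and Ppargc1a (-0.05), were not called for oil. Cyp2e1, a hepatocyte marker, was 2.80 ± 0.12 in CS and 3.13 ± 0.09 in TF, a difference of 0.33 (adjusted p = 0.0291 by limma). The other measured hepatocyte markers differed between TF and CS by -0.06 (Apoa1) to 0.09 (Serpina1), and none of them was called.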
